A study of Bos taurus with 6 samples.

Results

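Among the genes of cultured cattle rumen cells, 42 loci that carry only a LOC number were listed at or near 0 in control cultures and were present in every culture given butyrate. A locus was taken when its name was LOC followed by digits, its mean FPKM over the 3 control cultures was below 0.1, and its FPKM was at least 0.5 in each of the 3 butyrate cultures. FPKM counts sequenced fragments per kilobase of transcript, scaled to the depth of the library, so levels of different genes can be set side by side. The 42 loci were 0.343% of the 12232 LOC entries among 32183 entries in each expression table. Because the same values chose the loci, the rise of each locus from control to butyrate is given as a description, without a test.

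A LOC number is a placeholder that NCBI builds from its own gene ID when a gene has been predicted but has no established symbol, and many such entries are long non-coding RNAs (lncRNAs), pseudogenes or members of gene families. Microbes of the rumen make butyrate, a short-chain fatty acid, by fermentation, and the rumen epithelium takes it up and uses it as fuel. It also inhibits histone deacetylases, enzymes that remove acetyl groups from histones, and cells treated with such inhibitors gain histone acetylation.

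The cells were rumen epithelial primary cells (REPC). A single Holstein bull calf, aged 2 weeks and not yet on solid feed, was their donor. RNA was sequenced from 3 control cultures and from 3 others that received butyrate at 5 mM over 24 h, the 1 dose and time of the comparison. All 6 cultures came from cells of the same animal, so the spread between cultures, and every p-value below, measures variation between cultures and not between animals. Within a group, the culture replicates are numbered 1 to 3 as in the sample labels.

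The FPKM tables hold no read counts, but the confidence bounds given with each FPKM imply 5756609 to 6186809 fragments per control culture and 5807066 to 6142208 per butyrate culture. FPKM summed to between 678035 and 681912 per control culture and to between 619401 and 629037 per butyrate culture. The number of LOC entries above 0 was 2883 to 2969 in control and 3226 to 3294 after butyrate. The epithelial markers KRT5, KRT8, KRT14, KRT18, KRT19 and CDH1 were present in all 6 cultures, and the summed FPKM of 10 epithelial markers was 2435 to 2545 in control and 5089 to 5182 after butyrate, with 7 markers higher and 1 lower by limma (Benjamini-Hochberg adjusted p below 0.05). Markers of other cells moved too. The 10 fibroblast markers summed to between 4356 and 4512 in control and 6374 and 6715 after butyrate, and all 8 that were tested were higher, while PDGFRB and FAP did not exceed 0.152 FPKM in any culture. Of 4 smooth muscle markers, which summed to 3437 to 3626 in control and 1033 to 1391 after butyrate, 3 were lower and 1 was higher. The 5 neuronal markers summed to 115 to 121 in control and 252 to 274 after butyrate, with 3 of 3 tested higher. The 4 endothelial markers summed to 1.95 to 2.07 in control and 6.48 to 8.43 after butyrate, with both tested markers higher and CDH5 at 0, and the 5 immune markers to 5.20 to 7.15 and 7.52 to 9.46, with 1 of 2 tested higher and PTPRC at 0. The 5 germline markers stayed at a summed FPKM of at most 1.28, with the 1 that was tested higher and DAZL, DDX4 and TEX101 at 0. The part of these shifts in the levels of the 42 loci was not tested, and in bulk RNA a change in the share of a cell type cannot be told apart from a change in RNA per cell.

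The loci were close to silent in control cultures. Of the 126 control values, 91 were listed at 0, and the highest single control value was 0.260, in LOC100848443. In all 3 control cultures 21 of the 42 loci were at 0, 10 were at 0 in 2 cultures, 8 in 1, and 3 were above 0 throughout. After butyrate the locus means ran from 0.635 to 4.11 FPKM with a median of 1.20, so these were transcripts of low abundance in both conditions. A mean of at least 1 was reached by 24 loci and a mean of at least 2 by 5. The coefficient of variation (CV, the SD as a percentage of the mean) over the 3 butyrate cultures ran from 2.84% to 72.4%, with a median of 22.2%. Butyrate replicate 2 held the highest value for 18 loci, replicate 3 for 16 and replicate 1 for 8.

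**Figure D1:**
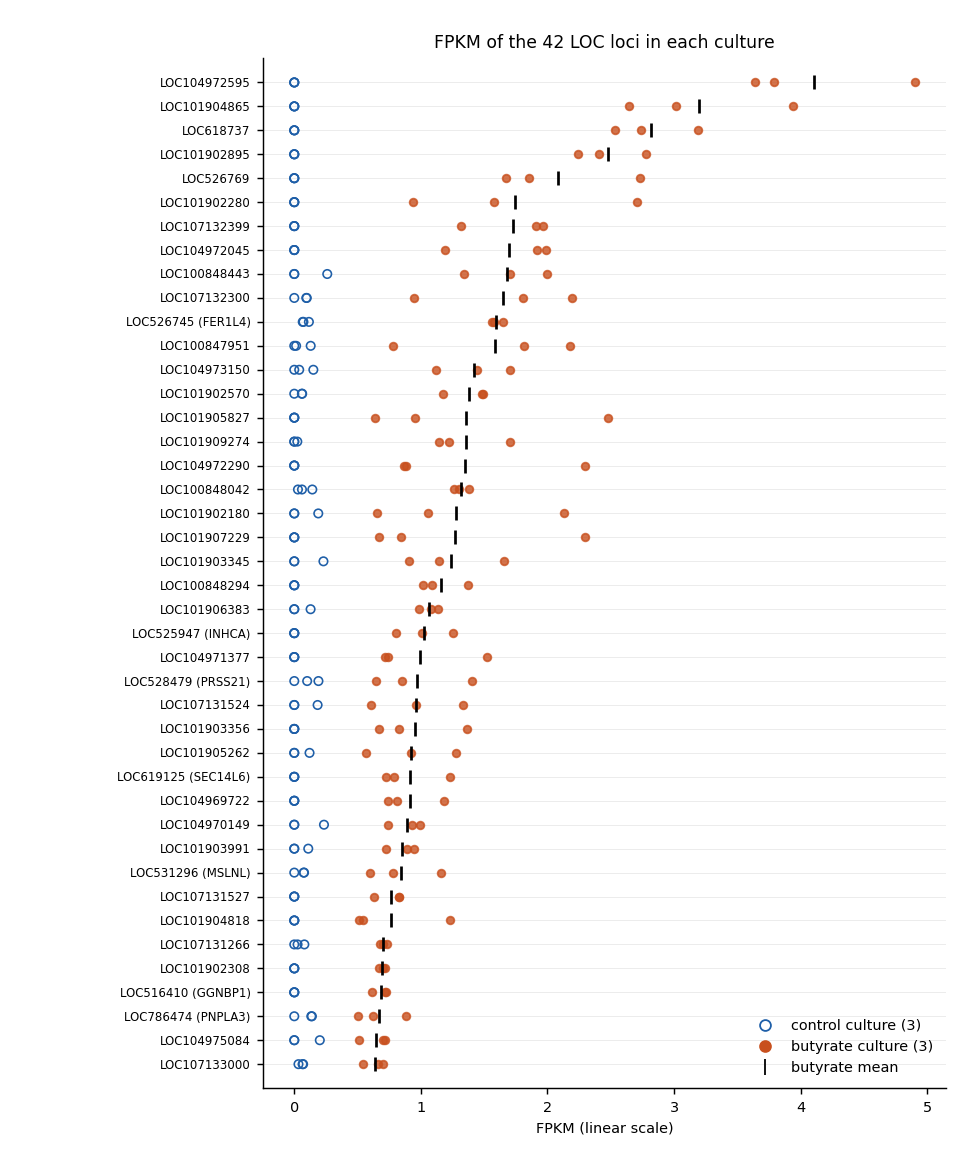
FPKM of each of the 42 loci on a linear axis, with 1 row per locus ordered by the butyrate mean. Open circles are the 3 control cultures, filled circles the 3 butyrate cultures and black bars the butyrate means. No control value exceeds 0.260, and the butyrate means fall from 4.11 for LOC104972595 at the top to 0.635 for LOC107133000 at the bottom.

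The RefSeq gene table of the later ARS-UCD2.0 assembly, matched by gene ID, held 26 of the 42 loci. It lists 15 of them as lncRNA (35.7% of the 42) and 11 as protein-coding (26.2%), and 16 had no entry (38.1%). Among the 12046 different LOC names, 12.4% were lncRNA, 24.2% protein-coding, 21.1% pseudogenes and 41.2% without an entry. Among the 2568 LOC names abundant enough to be tested (mean FPKM from 0.1 upward) the shares were 18.2%, 28.8%, 11.4% and 40.1%. None of the 42 was listed as a pseudogene.

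Of the 11 protein-coding loci, 7 now have a symbol. LOC526745 is FER1L4, a member of the ferlin family of membrane-binding proteins, and it lies on chromosome 13 at 65450546 to 65496001 of the UMD3.1 assembly. It was at 0.0668, 0.0723 and 0.116 FPKM in control replicates 1 to 3 and at 1.58, 1.65 and 1.56 in butyrate replicates 1 to 3. FER1L4 was above 0 in every control culture and had the smallest spread of all 42 loci after butyrate, with a CV of 2.84%. Its named neighbours are ERGIC3 at 1.59 kb and SPAG4 at 3.32 kb.

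LOC525947 is INHCA, the inhibitor of carbonic anhydrase, a protein related to transferrin, and it lies 24.5 kb from TF, the transferrin gene, on chromosome 1 (136746818 to 136790707). INHCA was at 0 in all 3 control cultures and at 0.807, 1.25 and 1.01 FPKM after butyrate. Its end overlaps LOC104971055 (136790677 to 136833023), which went the other way. That entry was at 0.445, 0.597 and 0 in control and at 0 in every butyrate culture. TF itself had a mean of 0.0135 in control and 0.0266 after butyrate, so the neighbouring family member stayed near 0 in both conditions. LOC531296 is MSLNL, mesothelin-like, on chromosome 25 (653104 to 661973), and its control values were 0, 0.0772 and 0.0745. After butyrate MSLNL was at 1.16, 0.596 and 0.783 FPKM. Its neighbour MSLN, which encodes the surface protein mesothelin, lies 0.267 kb away and is described with the flanking genes.

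Further symbols belong to a protease, a lipid-binding protein and a gametogenetin-binding protein. LOC528479 is PRSS21, a serine protease known from testis, on chromosome 25 (2241824 to 2247183), with control values of 0, 0.102 and 0.191 and butyrate values of 0.647, 0.852 and 1.40 FPKM. LOC619125 is SEC14L6, one of a cluster of SEC14-like lipid-binding proteins on chromosome 17 (71637604 to 71647131), listed at 0 in control and at 0.728, 1.23 and 0.785 after butyrate. LOC516410 is GGNBP1, gametogenetin-binding protein 1, on chromosome 23 (7662064 to 7667198), also at 0 in control and at 0.714, 0.611 and 0.722 after butyrate. PRSS21 varied most of these 3 between butyrate cultures and GGNBP1 least, with CVs of 40.4% and 9.08%.

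LOC786474 carries the gene ID that RefSeq now names PNPLA3, a lipid droplet protein, although the tables also hold an entry named PNPLA3 that lies 48.4 kb away. LOC786474, on chromosome 5 at 115038661 to 115060313, was at 0, 0.139 and 0.135 FPKM in control and at 0.622, 0.886 and 0.503 after butyrate. The PNPLA3 entry, at 114966330 to 114990291, was at 0, 0.140 and 0.135 in control and at 0.630, 1.13 and 1.01 after butyrate. The control values of both entries were nearly equal. The paper used only uniquely mapped reads, so neighbouring entries of like sequence can lose reads that fit both. The level of LOC786474 is therefore uncertain as a separate gene.

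The 4 protein-coding loci that still have no symbol included some of the highest levels. LOC618737 on chromosome 7 (5668715 to 5671472) was at 0 in every control culture and at 2.53, 3.19 and 2.74 FPKM after butyrate. LOC526769 on chromosome 16 (52660395 to 52671571), 1.62 kb from AGRN, was at 0 in control and at 1.68, 2.73 and 1.85 after butyrate. Both were thus listed at 0 without butyrate and were the third and the fifth of the 42 by their butyrate mean. LOC107132300 on chromosome 3 (33862553 to 33873909) lies 0.106 kb from GSTM1, a glutathione S-transferase of the mu class that conjugates glutathione to reactive compounds. It was at 0, 0.0986 and 0.0951 in control and at 0.947, 1.81 and 2.19 after butyrate. LOC101903991 on chromosome 25 (41944906 to 41949315) overlaps TMEM184A and was at 0.110, 0 and 0 in control and at 0.726, 0.892 and 0.942 after butyrate.

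The 15 loci listed as lncRNA had butyrate means from 0.645 to 2.48 FPKM with a median of 1.36, and 7 of them were at 0 in every control culture. The highest was LOC101902895 on chromosome 11 (104164221 to 104172095), which was at 0 in control and at 2.41, 2.24 and 2.78 after butyrate. LOC107132399 on chromosome 4 (47227898 to 47229447) overlaps an end of ATXN7L1 and was at 0 in control and at 1.31, 1.96 and 1.91 after butyrate. The CV over butyrate cultures was 11.0% for LOC101902895 and 20.8% for LOC107132399.

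LOC100848443 on chromosome 4 (69396662 to 69400802) was at 0.260, 0 and 0 FPKM in control and at 1.71, 1.34 and 1.995 after butyrate. It had the highest single control value of the 42, in replicate 1, and its butyrate values rest on 6, 5 and 7 implied fragments.

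LOC101909274 on chromosome 7 (82533266 to 82606763) overlaps TENM2, which encodes a teneurin, a cell adhesion protein of the nervous system. The lncRNA was at 0, 0.0240 and 0 in control and at 1.14, 1.70 and 1.22 after butyrate. TENM2 did not exceed 0.0415 FPKM in any culture, far below the LOC entry. LOC101902570 on chromosome 5 (103719178 to 103727951) lies 9.13 kb from C1R, a protease of the complement pathway. It was at 0.0600, 0 and 0.0624 in control and at 1.48, 1.18 and 1.49 after butyrate.

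LOC100847951 on chromosome 23 (35789153 to 36234887) spans 445735 bases, the longest of the 42, and ends 57.4 kb before SOX4, a transcription factor gene. It was at 0.0145, 0 and 0.130 in control and at 0.781, 2.18 and 1.81 after butyrate, so its butyrate cultures differed more than those of most loci, with a CV of 45.5%. LOC101905827 on chromosome 14 (21464850 to 21475776) lies 0.112 kb from EFCAB1, which encodes a calcium-binding EF-hand protein. It was at 0 in control and at 0.952, 2.48 and 0.642 after butyrate, and its CV of 72.4% was the largest of the 42.

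Further lncRNA loci among the 20 highest rested on few fragments. LOC101902280, on chromosome 11 (103838844 to 103839843) within GPSM1, was at 0 in control and at 2.71, 1.58 and 0.942 FPKM after butyrate. LOC104972045 on chromosome 4 (48402392 to 48413451) was at 0 in control and at 1.91, 1.19 and 1.99. LOC101902180, on chromosome 14 (20784425 to 20787643) within SPIDR, was at 0.190, 0 and 0 in control and at 2.13, 1.06 and 0.654. In LOC101902280 and LOC101902180 the value of butyrate replicate 1 was the highest and that of replicate 3 the lowest, and fewer than 5 implied fragments stood behind each value of these 3 loci.

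The 16 loci without a RefSeq entry had a median butyrate mean of 0.979 FPKM and held the highest levels as well as the lowest. LOC104972595 on chromosome 5 (113825113 to 113829932) was at 0 in all control cultures and at 3.64, 3.79 and 4.90 after butyrate, the highest of all 42. LOC101904865 on chromosome 11 (66359178 to 66363947) was at 0 in control and at 3.01, 3.94 and 2.65 after butyrate. LOC101904865 had no named entry within 100 kb, the nearest being C1D at 104 kb. LOC104973150 on chromosome 10 (47129703 to 47133545) was at 0.151, 0 and 0.0389 in control and at 1.12, 1.70 and 1.44 after butyrate.

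LOC100848042 on chromosome X (35640127 to 35643775) was above 0 in every control culture, at 0.142, 0.0607 and 0.0290, and was at 1.30, 1.38 and 1.26 after butyrate. Its CV of 4.70% placed it among the least variable loci. LOC104972290 on chromosome 4 (114392421 to 114393764) lies at an end of the entry of NOS3, the endothelial nitric oxide synthase gene, and 0.0120 kb from ATG9B, an autophagy gene. It was at 0 in control and at 0.868, 2.30 and 0.881 after butyrate, so 1 culture carried most of its level. LOC101907229 on chromosome 27 (32773932 to 32793177) was at 0 in control and at 2.29, 0.844 and 0.667 after butyrate, with the high value in replicate 1. Its end overlaps LOC107131169 (32793133 to 32799243). That entry was at 0.386, 0.356 and 0.114 in control and at 2.16, 1.31 and 0.850 after butyrate. Whether these entries share reads was not tested.

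The number of fragments behind these levels differed by locus. The bounds deposited with each FPKM equal 2 SD of a counting error, from which the number of fragments was computed; the result was whole within 0.05 for 56.3% to 57.6% of table entries with under 12 fragments in a culture, and for 61 of the 126 butyrate values of the 42 loci. Where a gene has several transcripts or shares reads the number need not be whole and is an approximation. Over the 3 butyrate cultures the loci had 3 to 226 implied fragments, with a median of 19.5. At least 10 in each butyrate culture stood behind 14 loci, 3 or fewer in at least 1 culture behind 13, and 15 lay between. The floor of 0.5 FPKM corresponded to as little as 0.574 fragments in 1 locus and as many as 23.6 in another, with a median of 3.29, so for many loci the presence in each butyrate culture meant a handful of fragments.

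The 14 well-covered loci were FER1L4, INHCA, MSLNL, LOC104972595, LOC618737, LOC101902895, LOC526769, LOC104973150, LOC101902570, LOC101909274, LOC100848042, LOC101906383, LOC107131266 and LOC107133000. FER1L4 had the most, with 71.5, 84.9 and 69.6 fragments in butyrate replicates 1 to 3, and LOC101909274 followed with 48.1, 67.7 and 48.3. At the other end LOC101902308 on chromosome X (14130526 to 14139413) rested on 1 fragment in each butyrate culture, although its FPKM of 0.702, 0.668 and 0.718 gave one of the smallest CVs, 3.65%. An even FPKM over cultures was therefore no sign of depth. LOC101902280, the sixth of the 42 by level, rested on 3, 2 and 1 fragments.

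**Figure D2:**
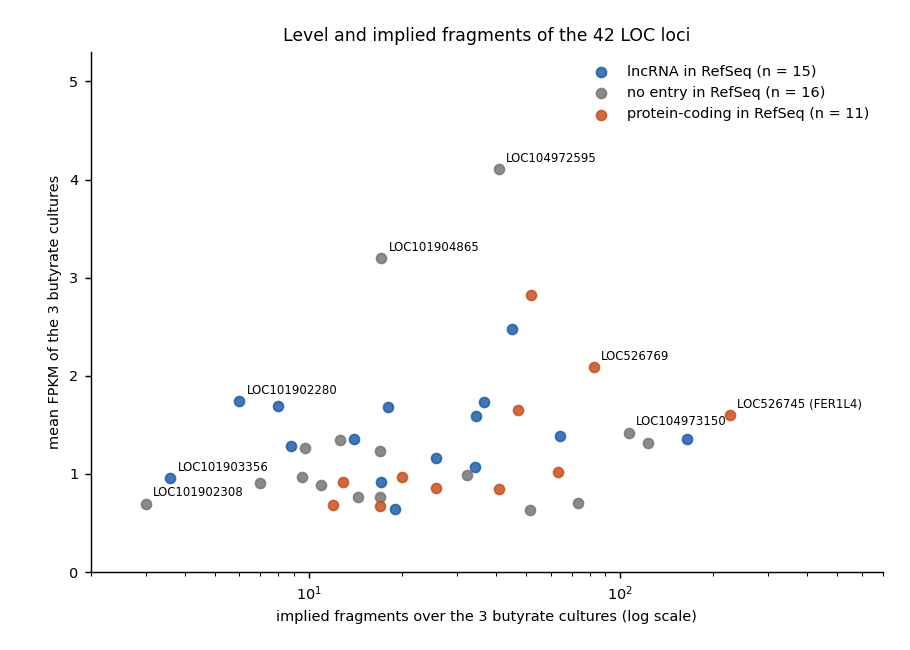
Mean FPKM of the 3 butyrate cultures against the implied fragments summed over them (log axis), 1 point per locus, coloured by the RefSeq gene type. Loci of similar level differ widely in coverage: LOC101902280 and FER1L4 lie at similar FPKM with 6 and 226 fragments.

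For 19 loci the lower bounds of all 3 butyrate values lay above the upper bounds of all 3 control values. The lower bound was above 0 in every butyrate culture for 24 loci and in no butyrate culture for 7. These bounds cover counting error only. The rule took loci low in control and present in each butyrate culture, so such separation was largely built in. The same counts were not made for other entries, and nothing is read from them.

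Loci on either side of the limits differed little. By control mean the last loci taken were LOC100848443 at 0.0868, LOC786474 at 0.0912 and PRSS21 (LOC528479) at 0.0976, and the first left out were LOC513779, LOC101906278 and LOC101904861, each at 0.103. By the lowest butyrate value the last taken were LOC786474 at 0.503, LOC101904818 at 0.510 and LOC104975084 at 0.514. A second entry named LOC101904818 (chromosome 4, 106491657 to 106492151) lies inside the first. It was at 0 in control and did not exceed 0.000146 FPKM after butyrate. The nearest loci left out were LOC100336941 at 0.469, LOC101905481 at 0.450 and LOC107131504 at 0.417.

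Of the entries with any other name, 202 (1.01%) met the same limits. In the mirror direction, present in each control culture and near 0 after butyrate, 9 LOC entries and 18 others met the limits. The 202 other entries had a median butyrate mean of 1.38 FPKM, against 1.20 for the LOC loci, and the highest reached 30.4 for EEF1A2, a translation elongation factor gene of nerve and muscle. They rested on more fragments, with a median of 57.4 over the 3 butyrate cultures, and 64.4% of them had at least 10 in each, against 33.3% of the LOC loci. All 3 control values were at 0 for 29.7% of the 202 and for 21 of the 42 LOC loci. The median CV over butyrate cultures was 23.1% for the 202, against 22.2%. Both sets were chosen by the same values, so these differences are descriptive.

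The 42 loci lay on 20 chromosomes. Chromosome 4 held 6 of them, which was 1.18% of its 509 LOC entries, and chromosome 25 held 3 of 257, or 1.17%. Chromosomes 5, 11 and 19 held 3 each. Neighbours within 100 kb of each other were found once, for LOC107131524 (42493662 to 42510769) and LOC104975084 (42512701 to 42522941), which lie 1.93 kb apart on chromosome 19 between KRT17, a keratin gene, and EIF1, a translation initiation factor gene. LOC107131524 was at 0.184, 0 and 0 in control and at 1.33, 0.603 and 0.960 after butyrate, and LOC104975084 was at 0, 0.202 and 0 in control and at 0.514, 0.703 and 0.717 after butyrate. LOC107131524 was highest in butyrate replicate 1 and LOC104975084 lowest there, and both had at most 7 implied fragments in a culture. The other loci stood alone, and counting to 1 Mb brought the number with another of the 42 nearby only to 6.

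Most loci were close to a named gene. A named entry overlapped or lay within 1 kb of 13 loci and within 10 kb of 23, and 5 had none within 100 kb. The median gap to the closer named entry was 9.09 kb. The same gaps are not given here for other LOC entries. Whether these loci lie closer to named genes than other LOC entries was therefore not tested. All 26 loci found in the ARS-UCD2.0 gene table lie there on the same chromosome, and 43 of their 44 immediate named neighbours within 100 kb were again within 100 kb. In all, 10 loci overlapped another entry. For LOC101907229, INHCA (LOC525947) and LOC101904818 that entry also carries a LOC number. The sources used here do not state whether reads were assigned by strand, so reads of a locus and of an overlapping gene on the opposite strand cannot be told apart. Among the overlapping pairs, GPSM1, TMEM184A, SPIDR and ATXN7L1 had butyrate means of 3.61 to 28.0 FPKM, above those of their loci, whereas NOS3 and TENM2 did not exceed 0.179 FPKM in any culture and PNPLA5 was at 0.

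The flanking genes were not used to choose the loci and could be tested. For each locus the nearest named gene on each side within 100 kb with a mean FPKM of at least 0.1 was compared between the 3 butyrate and 3 control cultures on log2(FPKM + 0.1), a scale that understates changes at low levels. This gave 59 genes beside 35 loci, and 7 loci had no such gene. With limma and a Benjamini-Hochberg adjusted p below 0.05 over all 15813 entries tested, 27 of the 59 (45.8%) were higher after butyrate and 15 (25.4%) were lower, while 17 did not pass. Butyrate changed much of the transcriptome, and 32.5% of all tested entries were higher and 25.9% lower, so the share of lower flanking genes was near the background and the share of higher ones above it; whether that share differs from the background was not tested. Among the 13191 tested entries with a gene name 34.4% were higher and 28.7% lower. The median log2 difference was 0.35 over the flanking genes and 0.10 over all tested entries. The split of the flanking genes depended on the filter. With a filter at a mean FPKM of at least 1, 20 of 53 (37.74%) were higher and 19 (35.85%) were lower. The background shares at that filter are not given here. By the study's stricter thresholds, a Bonferroni-corrected p below 0.05 and a log2 fold change above 2, 3 of the 59 were upregulated, namely KCNH2, NFAM1 and GSTM1, beside 2.46% of all tested entries. KCNH2 and NFAM1 were at 0 in every control culture, entered the test through their butyrate values and had log2 differences set by the pseudocount, so nothing is read from this count. By the same thresholds 0 were downregulated by limma, also at an unadjusted p below 0.05, since the lowest log2 difference was -1.97. Of these 3, GSTM1 alone passed when any 1 culture was left out.

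The 59 genes split by distance as 12 higher and 6 lower of 22 within 10 kb, 12 and 7 of 26 from 10 to 50 kb, and 3 and 2 of 11 from 50 to 100 kb. Counted by locus, 22 of the 35 had a flanking gene that was higher, 15 had one that was lower, 7 had one of each and 5 had none that passed. Of the 35, 26 had a flanking gene on both sides, so these counts cannot be set beside shares per gene. No background per locus was computed, and nothing is read from them. For 4 loci every flanking gene within 100 kb was lower. Beside the 14 loci with at least 10 fragments in each butyrate culture, 9 of 20 flanking genes were higher and 6 were lower. The filter on mean FPKM admits genes that are present only after butyrate, and 4 such genes, described next, are among the 27 counted as higher. PNPLA3 and GAL3ST1, also among the 27, had control means of 0.0914 and 0.0654 and likewise passed the filter through their butyrate values.

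**Figure D3:**
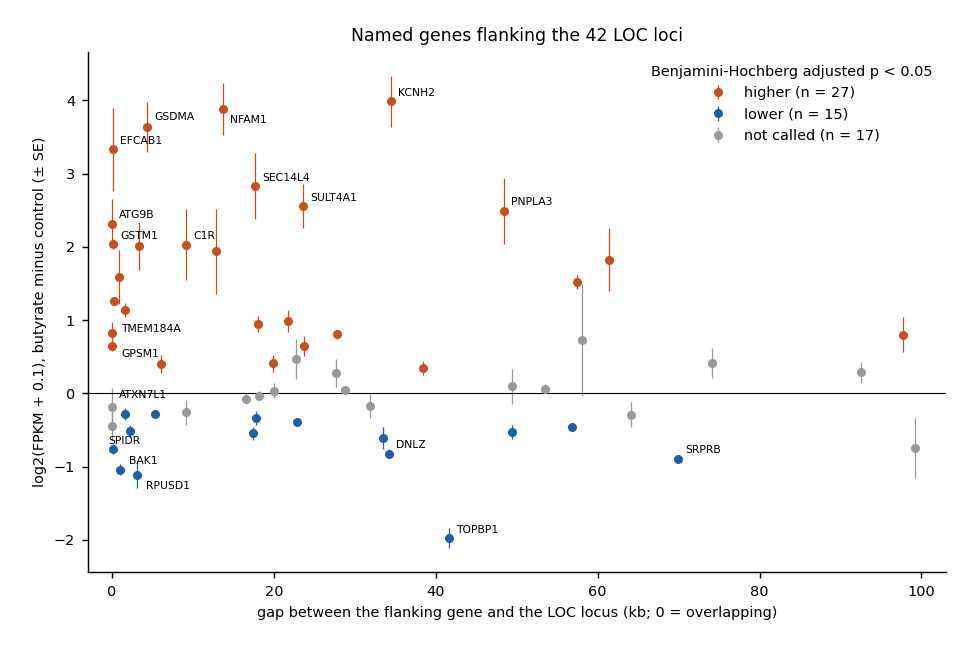
Log2 difference of each of the 59 flanking genes (butyrate minus control on log2(FPKM + 0.1), points with SE from limma, n = 3 and 3 cultures) against its gap in kb to the locus, with 0 for overlapping genes. Red marks the 27 higher, blue the 15 lower and grey the 17 not called. Higher and lower genes occur at all distances, and KCNH2, NFAM1, GSDMA and SEC14L4 were at 0 in control, so the size of their difference depends on the pseudocount.

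Of the flanking genes called higher, 4 were at 0 in every control culture, as 21 of the loci were. NFAM1, an immune receptor adaptor gene 13.7 kb from LOC104972595, was at 0.987, 1.83 and 1.43 FPKM after butyrate. GSDMA, a gasdermin gene of skin epithelium 4.29 kb from LOC107131527, was at 1.18, 1.38 and 0.909. KCNH2, a cardiac potassium channel gene 34.4 kb from LOC104972290, was at 2.04, 1.15 and 1.39. SEC14L4, 17.6 kb from SEC14L6 (LOC619125) and of the same family, was at 0.317, 0.707 and 0.966. No fold change or p is given for these genes, since the control is listed at 0 and they passed the filter on mean FPKM through their butyrate values alone. LOC107131527 itself (chromosome 19, 40937288 to 40939655) was at 0 in control and at 0.826, 0.627 and 0.831 after butyrate.

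EFCAB1, beside LOC101905827, went from 0.196, 0 and 0.300 FPKM in control to 1.80, 1.46 and 3.95 after butyrate, a log2 difference of 3.33 ± 0.57 (SE, limma, adjusted p = 0.00102). A pseudocount of 1 gave a difference of 1.49, and one of 0.01 gave 4.67, for EFCAB1. Its high culture was replicate 3, while that of LOC101905827 was replicate 2, but the deposited bounds of the locus overlapped between its butyrate cultures, so their order is not resolved. GSTM1, beside LOC107132300, went from 12.3, 12.4 and 12.7 to 54.0, 52.6 and 48.0, a log2 difference of 2.04 ± 0.07 (limma, adjusted p = 1.13e-07). A second entry named GSTM1 lies elsewhere in the same cluster of related genes. Reads that fit more than 1 of these similar sequences would not map uniquely and would be left out. GSTM2, on the other side of LOC107132300 at 27.6 kb, did not pass, at a log2 difference of 0.28 ± 0.19 (limma, adjusted p = 0.25).

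The other large rises were of genes at low levels. ATG9B rose by 2.31 ± 0.33, SULT4A1, a sulfotransferase family gene of brain that lies 23.7 kb from LOC786474, by 2.56 ± 0.30, and C1R by 2.03 ± 0.48 on the log2 scale. With a pseudocount of 1 in place of 0.1 the differences were 1.39, 1.54 and 0.80, so their size depends on the pseudocount. Mean levels went from 0.555 to 3.12 FPKM for ATG9B, from 0.502 to 3.42 for SULT4A1 and from 0.245 to 1.17 for C1R, with adjusted p by limma of 0.000384, 1.00e-04 and 0.00629. PNPLA3 went from a mean of 0.0914 to 0.925. No fold change or p is given for PNPLA3, since it passed the filter through its butyrate values. Reads that fit both PNPLA3 and LOC786474 may also have been left out. In each of these 4 genes every butyrate culture lay above every control culture. Genes at higher levels rose as well. MSLN, beside MSLNL (LOC531296), went from 230 ± 4.94 to 554 ± 18.8 FPKM (SD, n = 3 each, limma adjusted p = 8.77e-08), AGRN, a basement membrane proteoglycan gene beside LOC526769, from 11.7 ± 1.26 to 25.9 ± 1.88 (adjusted p = 1.73e-05), and SOX4 from 29.7 ± 2.55 to 85.7 ± 9.76 (adjusted p = 2.44e-06).

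Some of the 42 loci also lay beside genes that fell. TOPBP1, a DNA replication and checkpoint gene 41.6 kb from INHCA (LOC525947), went from 8.26, 7.95 and 6.60 FPKM to 1.83, 1.93 and 1.80, a log2 difference of -1.97 ± 0.14 (limma, adjusted p = 5.46e-06). SRPRB, a subunit of the signal recognition particle receptor on the other side of INHCA at 70.0 kb, went from 87.2 ± 1.71 to 47.0 ± 1.43, a log2 difference of -0.89 ± 0.05 (adjusted p = 1.37e-06). INHCA, at 0 in control, thus lay between tested neighbours that were both lower after butyrate. BAK1, a pro-apoptotic gene of the BCL2 family 1.03 kb from GGNBP1 (LOC516410), went from 71.6, 83.8 and 72.3 to 38.9, 35.3 and 35.9, a log2 difference of -1.04 ± 0.08 (adjusted p = 5.70e-06).

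RPUSD1, a pseudouridine synthase family gene 3.08 kb from MSLNL, went from 6.71 ± 1.18 to 3.05 ± 0.54 FPKM, a log2 difference of -1.11 ± 0.18 (limma, adjusted p = 0.000668). MSLNL therefore had MSLN, higher, on one side and RPUSD1, lower, on the other. DNLZ, which encodes a mitochondrial zinc finger protein 34.2 kb from LOC101902280, went from 73.9 ± 4.84 to 41.7 ± 1.34, a log2 difference of -0.82 ± 0.06 (adjusted p = 7.81e-06). HDDC2, 0.129 kb from LOC101903345, went from 84.7 ± 6.15 to 49.9 ± 3.11, a log2 difference of -0.76 ± 0.07 (adjusted p = 2.84e-05), while LOC101903345 (chromosome 9, 26248072 to 26284920) was at 0, 0 and 0.230 in control and at 0.905, 1.66 and 1.14 after butyrate.

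Of the 4 tested genes that overlap a locus, GPSM1, a modulator of G protein signalling, rose by 0.65 ± 0.07 on the log2 scale (limma, adjusted p = 9.40e-05) and TMEM184A, a membrane protein gene, by 0.82 ± 0.16 (adjusted p = 0.002). SPIDR, a DNA repair scaffold gene, had a log2 difference of -0.44 ± 0.21 (adjusted p = 0.106) and ATXN7L1 one of -0.19 ± 0.27 (adjusted p = 0.565), neither past the threshold. SPIDR was at 2.85, 4.97 and 3.01 FPKM in the butyrate cultures, against 4.47, 4.97 and 4.90 in control. Without butyrate replicate 2 its difference was -0.69 with an adjusted p of 0.007. The locus within SPIDR, LOC101902180, was highest in butyrate replicate 1. The deposited bounds of this locus overlapped between its butyrate cultures, so their order is not resolved.

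**Figure D4:**
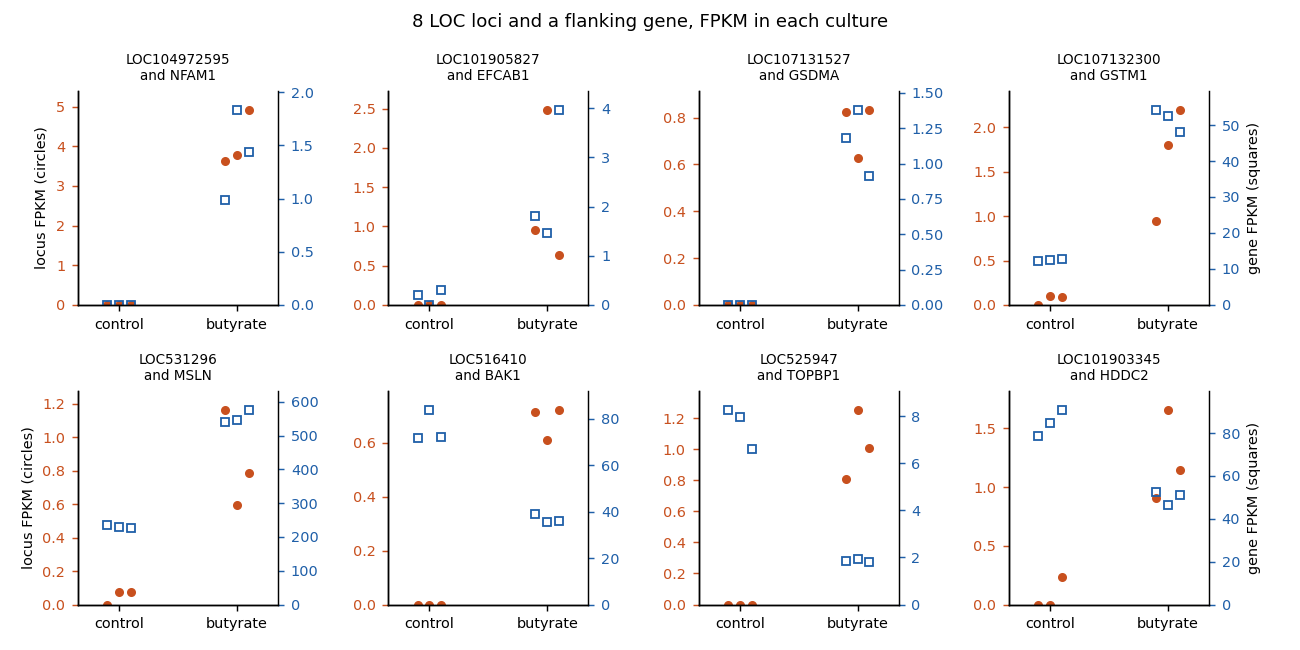
FPKM in each culture for 8 loci (filled circles, left axis) and a flanking gene (open squares, right axis), both linear from 0, with 3 control and 3 butyrate cultures per panel in the order of replicates 1 to 3. The upper panels and the MSLN panel show genes that were higher after butyrate, and the BAK1, TOPBP1 and HDDC2 panels genes that were lower while the locus was at 0.611 FPKM or more.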

How the data were processed

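The authors extracted total RNA from the 6 cultures, made libraries with a TruSeq RNA kit and sequenced them as paired reads. They trimmed the reads with Trim Galore, aligned them with STAR to the cattle assembly UMD3.1 named in the submitters' processing notes, and used Cufflinks to deposit the FPKM of each gene in each culture with a lower and an upper bound. By the paper's account, reads that did not map uniquely were not used. Whether reads were assigned by strand is not given in the sources used here.

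Table entries were joined by position. Starts in the tables count from 0 and were raised by 1. A sequence took the chromosome of most of its named genes in RefSeq's ARS-UCD2.0 gene table, which otherwise gave symbols, gene types and neighbours only. Fragments were computed as (2 × FPKM / (upper bound − FPKM)) squared. Of the 6 cultures, no pair had the same values. Depth per culture was 5756609 to 6186809 implied fragments.

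Flanking genes were tested two-sided on log2(FPKM + 0.1) with limma 3.58.1 (R 4.3.3, eBayes with trend), over 15813 entries with a mean FPKM of at least 0.1, after 2 entries with a failed estimate were left out. Count models were not used on FPKM. The loci, the gene lists and the tests were chosen with earlier results of these data known.

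The text names the 20 loci with the highest butyrate mean, loci with a newer symbol, a further locus within 100 kb, the 3 on each side of each limit and the extremes of CV, the 10 flanking genes with the largest and the 5 with the smallest log2 difference that passed, and those overlapping a locus. Outside this rule, LOC101902308, LOC107131527, LOC101903345, LOC101903991, the other well-covered loci, and the flanking genes MSLN, AGRN, SOX4, HDDC2 and GSTM2 were named after their values were seen, as were the neighbours TF, NOS3, TENM2 and PNPLA5. Alternatives were other limits of the rule, pseudocounts, filters, scalings, windows, no trend, the replicate number as a block, and 1 culture left out at a time.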

Additional observations from a re-analysis of the deposited data

How the results depend on the processing

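The number of loci followed the limits of the rule. A control ceiling of 0.2 gave 70, a butyrate floor of 0.25 gave 80 and a floor of 1 gave 14, and requiring at least 10 implied fragments in each butyrate culture, chosen after seeing the data, left 14. A ceiling of 0.05 gave 28 and rescaling each culture to a common total gave 51. With 1 control culture left out, the count was 44 to 51, against 42, and with 1 butyrate culture left out it was 53 to 56. Leaving out a butyrate culture could only keep or raise the count, since the floor applies to each of them. The flanking genes called higher ranged from 20 to 34 and those called lower from 13 to 19 over all alternatives. The 20 higher and the 19 lower fell in the same setting, a filter at a mean FPKM of at least 1. There were 24 and 15 once genes overlapping a locus and PNPLA3 were left out, an alternative chosen after seeing the data. The 3 flanking genes upregulated by the study's thresholds became 1 with a pseudocount of 0.01, 0 by limma with a pseudocount of 1, where the highest log2 difference was 1.96 and the count at an unadjusted p below 0.05 was 0 too, 1 with no filter on low values, 1 after quantile normalization and 1 with the replicate block. It was 1 to 1 with any 1 culture left out, and wherever 1 gene was left it was GSTM1. The cause was not tested for the settings other than that pseudocount. Among the 19 flanking genes named by the rule, 258 values kept their direction and their side of the threshold. The 2 exceptions were SPIDR after quantile normalization (-0.61, adjusted p = 0.0437) and without butyrate replicate 2 (-0.69, adjusted p = 0.007).

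Scaling changed the median log2 difference and the calls over all tested entries, and quantile normalization did not move every gene in the same direction. The median log2 difference of all tested entries was 0.10 as deposited, -0.05 after quantile normalization and 0.24 after rescaling to a common total, and the calls split into 5144 higher and 4091 lower, 4284 and 4679, and 6018 and 3382. The share of flanking genes called higher was 40.7% against 27.1% of all tested entries after quantile normalization and 48.3% against 36.3% after rescaling. The replicate numbers did not pair the cultures, since deviations of same-numbered cultures from their group means correlated at 0.02, -0.00431 and 0.00177 over genes, and the replicate block left 27 flanking genes higher and 15 lower. Promoter sequence features were not run, since no promoter sequences were used here. Depth limits the loci too, since 13 of the 42 rested on 3 or fewer fragments in at least 1 butyrate culture.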
